A study of Mus musculus with 12 samples.

Results

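The genes described here encode the chains of collagen, and they were taken as all gene symbols of the count table made of Col, a number, the letter a and a number. This rule found 44 of the 55573 genes in the table, and no filter on low counts was used to choose them. RNA-seq was performed on flow-sorted CD11b+ F4/80+ cells in 4 groups of 3 libraries. BMI1-KO MM-MΦs were macrophages from the bone marrow of BMI1fl/fl Mx1-Cre mice that had been kept for 48 h with 5TGM1 cells, a mouse myeloma cell line, and BMI1-KO MΦs were the same macrophages without myeloma cells. Wt MM-MΦs and wt MΦs were made in the same manner from BMI1fl/fl mice without Cre. All mice were on C57BL/6, carried floxed BMI1 alleles and had received 5 doses of 15 mg/kg poly-I:C at 6 to 8 weeks of age, and their marrow was taken 4 weeks after the last dose and grown for 7 days in 5 ng/mL M-CSF, a macrophage growth factor. Mx1-Cre is driven by an interferon-inducible promoter that is active in many cell types, so the deletion need not be limited to macrophages. The labels number the libraries 1 to 3 within each group and do not say whether these are separate mice, so p-values measure the spread between libraries, which may be technical.

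Collagens are triple-helical proteins of the extracellular matrix, and each molecule winds 3 chains that can come from different genes. Fibrillar collagens form the fibres of bone, skin and tendon, and the chains of type IV collagen form the sheet of the basement membrane. FACIT collagens, short for fibril-associated collagens with interrupted triple helices, coat fibres, and the multiplexins types XV and XVIII sit in or near basement membranes. In bone marrow the bulk of collagen is made by osteoblasts, fibroblasts and other stromal cells, while macrophages are better known for taking collagen up and breaking it down. The comparisons below ask how much collagen chain RNA the sorted macrophages held, and whether loss of BMI1 or co-culture with myeloma cells went with a different level.

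Library totals were 9662279 to 11142768 counts. Bmi1, the targeted gene, had 251 to 364 counts in the 6 wt libraries and was listed at 0 in the 6 BMI1-KO libraries, but the total implied by the FPKM values exceeded the summed counts by 512 to 734 in BMI1-KO libraries and matched them within 1 count in wt libraries, so this 0 was not used to check the labels. All 12 macrophage markers passed the low-count filter, and their summed level was 15447 to 23640 CPM (counts scaled to library size, here by edgeR's TMM method) over the 12 libraries. Replicate numbers were read as pairing MM-MΦ with MΦ libraries within a genotype. BMI1-KO libraries with number 3 stood apart from the other libraries of their genotype in several results below. Values without them are given for the summed collagen level, the RPKM order, Cspg4 and the genotype fold changes of Col18a1, Col4a1, Col4a2, Col4a5, Col14a1 and Col19a1. Medians over genes, counts of genes above 0 and the other listed genes, such as Plod2, are given with all libraries only.

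Collagen chain RNA was scarce in all 4 groups. Summed counts of the 44 genes were 925, 1700 and 3241 in BMI1-KO MM-MΦs, 956, 1362 and 3266 in BMI1-KO MΦs, 991, 1092 and 746 in wt MM-MΦs, and 807, 1156 and 1023 in wt MΦs. These sums made up 0.0070% to 0.0307% of a library. On the TMM-scaled level the sums averaged 186 ± 96.8 CPM for BMI1-KO MM-MΦs, 175 ± 106 CPM for BMI1-KO MΦs, 92.5 ± 24.4 CPM for wt MM-MΦs and 95.8 ± 19.5 CPM for wt MΦs (SD, n = 3 each). Within both BMI1-KO groups number 3 was highest, at 290 CPM in MM-MΦs and 296 CPM in MΦs, while both BMI1-KO libraries with number 1 lay at 98.3 and 99.6 CPM, inside the wt range of 65.4 to 118 CPM. Without its library 3, the log2 ratio of BMI1-KO MM-MΦs to wt MM-MΦs for this sum was 0.54, against 1.01 with all libraries, and that of BMI1-KO MΦs to wt MΦs was 0.26, against 0.87. In bulk samples like these, fewer cells of a type and less RNA per cell cannot be told apart.

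**Figure D1:**
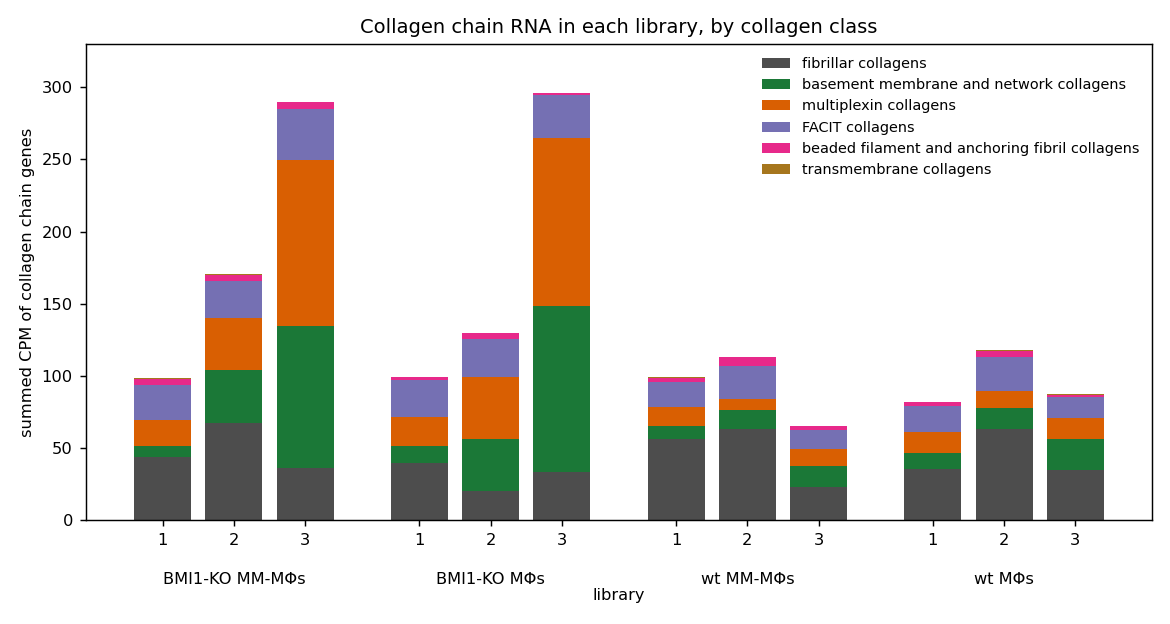
Summed CPM (TMM-scaled) of collagen chain genes in each of the 12 libraries, stacked by collagen class. BMI1-KO libraries with number 3 reach 290 and 296 CPM, mostly through basement membrane, network and multiplexin chains, and the wt libraries lie between 65.4 and 118 CPM.

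Of the 44 genes, 20 passed the low-count filter, 10 had counts but did not pass, and 14 were at 0 in all 12 libraries. All 11 fibrillar genes had counts and 6 passed. Among basement membrane and network chains 4 of 9 passed and 4 were at 0, among FACIT collagens 5 of 9 passed and 2 were at 0, and among beaded filament and anchoring fibril chains 3 of 9 passed and 5 were at 0. Both multiplexins passed, and 3 of the 4 transmembrane collagens were at 0. The genes at 0 included Col10a1, the collagen of hypertrophic cartilage, Col17a1, a collagen of epithelial anchoring junctions, and Col4a3 and Col4a4, which encode type IV chains of the kidney glomerulus. A count of 0 in a library allows up to 3 counts there, counting error only. The 10 genes below the filter held 4 to 65 counts each over all libraries, and one of them was Col3a1, the main partner of type I collagen in soft connective tissue, with 26 counts in all.

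Per length of transcript, Col18a1 had the highest mean over all libraries, 4.39 RPKM (counts scaled to exon length and library total). Col4a2 followed with 2.49 RPKM, Col1a1 with 2.45 RPKM, Col20a1 with 1.74 RPKM, Col4a1 with 1.38 RPKM, Col14a1 with 1.04 RPKM, Col1a2 with 1.02 RPKM and Col4a5 with 0.768 RPKM. The order depended on the libraries: without library 3 of both BMI1-KO groups, Col1a1 came before Col18a1, with a mean of 2.48 RPKM against 2.01 RPKM over 10 libraries, and Col4a2 was at 1.22 RPKM. Col18a1 was at 1.89 to 16.1 RPKM in BMI1-KO MM-MΦs, 2.03 to 16.4 RPKM in BMI1-KO MΦs, 0.532 to 1.28 RPKM in wt MM-MΦs and 0.921 to 1.74 RPKM in wt MΦs. Col1a1 was at 2.09 to 4.49 RPKM, 0.865 to 2.49 RPKM, 1.24 to 3.26 RPKM and 1.46 to 3.66 RPKM in the same groups, and the ranges of the 2 genes overlapped in each group. Col18a1 alone supplied 38.9% and 37.5% of the collagen counts of BMI1-KO MM-MΦs 3 and BMI1-KO MΦs 3, against 3.4% to 12.9% in the wt libraries.

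Col18a1 encodes the chain of type XVIII collagen, a heparan sulfate proteoglycan whose C-terminal fragment is endostatin, and lies on chromosome 10 (GRCm38, 77052178 to 77166548, minus strand). It had 130, 294 and 1262 counts in BMI1-KO MM-MΦs, 138, 372 and 1224 counts in BMI1-KO MΦs, 97, 37 and 94 counts in wt MM-MΦs, and 88, 64 and 132 counts in wt MΦs. Within either culture every BMI1-KO library lay above every wt library, and libraries of the same number in the 2 BMI1-KO groups were close to each other. The log2 fold change of BMI1-KO against wt was 2.84 (SE 0.84, edgeR adjusted p = 0.535) in MM-MΦs and 2.59 (SE 0.83, edgeR adjusted p = 0.607) in MΦs, so neither passed the threshold of 0.05 over the 14197 genes tested. Without its library 3 the BMI1-KO group gave 1.58 in MM-MΦs (edgeR adjusted p = 0.951) and 1.48 in MΦs (edgeR adjusted p = 0.971). DESeq2, run as an alternative, called Col18a1 in MM-MΦs (adjusted p = 0.0205), where it called 0.627% of all genes, and did not call it in MΦs (adjusted p = 0.0594).

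Col4a2 and Col4a1 encode the chains of the commonest type IV collagen, in which they wind around each other. Col4a2 had 40, 206 and 593 counts in BMI1-KO MM-MΦs, 47, 233 and 676 counts in BMI1-KO MΦs, 34, 48 and 52 counts in wt MM-MΦs, and 35, 40 and 92 counts in wt MΦs. Col4a1 had 18, 91 and 353 counts in BMI1-KO MM-MΦs, 23, 104 and 407 counts in BMI1-KO MΦs, 32, 38 and 60 counts in wt MM-MΦs, and 32, 69 and 86 counts in wt MΦs. For both genes the BMI1-KO libraries with numbers 2 and 3 were above all wt libraries and those with number 1 fell within or below the wt range. The fitted log2 fold change of Col4a2 was 2.59 (SE 0.91, edgeR adjusted p = 0.750) in MM-MΦs and 2.51 (SE 0.90, edgeR adjusted p = 0.708) in MΦs. That of Col4a1 was 1.78 (SE 0.97, edgeR adjusted p = 0.999) in MM-MΦs and 1.48 (SE 0.95, edgeR adjusted p = 0.972) in MΦs. Without library 3 of the BMI1-KO group, Col4a1 gave 0.42 in MM-MΦs and 0.060 in MΦs, and Col4a2 gave 1.53 and 1.38 in the same order of cultures.

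The promoter windows of Col18a1, Col4a1 and Col4a2 are shown because these 3 chains had the same order of libraries within the BMI1-KO groups. Col4a5, Col14a1 and Col19a1, described below, had this order too. Col4a1 and Col4a2 are also neighbours read in opposite directions, with annotated 5′ ends that overlap by 22 bases on chromosome 8. Each window holds 250 bases before and 50 bases after the start that RefSeq gives on GRCm38.p6, and 35 of the 44 genes had such a window. Capitals mark matches on either strand to 3 short motifs. The GC box was searched as GGGCGG. The CCAAT box was searched by the letters of its name. The box bound by the TATA-binding protein was searched as TATAAA. Col18a1 has 2 windows, and the one at the upstream start is shown.
Col18a1, chr10:77166481-77166780, minus strand: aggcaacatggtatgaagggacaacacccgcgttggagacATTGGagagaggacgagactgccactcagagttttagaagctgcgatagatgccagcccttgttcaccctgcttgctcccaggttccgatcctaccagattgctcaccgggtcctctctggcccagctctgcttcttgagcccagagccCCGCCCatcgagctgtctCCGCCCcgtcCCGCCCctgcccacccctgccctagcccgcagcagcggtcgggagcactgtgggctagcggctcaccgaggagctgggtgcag
Col4a1, chr8:11312777-11313076, minus strand: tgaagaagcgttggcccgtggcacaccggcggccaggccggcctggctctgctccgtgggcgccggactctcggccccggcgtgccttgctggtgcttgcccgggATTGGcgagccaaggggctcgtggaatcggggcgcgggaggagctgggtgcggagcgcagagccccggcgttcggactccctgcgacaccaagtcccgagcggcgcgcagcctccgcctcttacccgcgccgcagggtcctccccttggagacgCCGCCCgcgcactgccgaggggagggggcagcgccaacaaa
Col4a2, chr8:11312555-11312854, plus strand: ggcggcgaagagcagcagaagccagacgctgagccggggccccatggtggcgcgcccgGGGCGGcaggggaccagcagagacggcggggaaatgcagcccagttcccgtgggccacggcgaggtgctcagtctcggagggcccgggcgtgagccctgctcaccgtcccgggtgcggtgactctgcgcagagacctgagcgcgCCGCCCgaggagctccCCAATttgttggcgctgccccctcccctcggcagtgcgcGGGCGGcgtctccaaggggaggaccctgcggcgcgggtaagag
In these windows the Col18a1 promoter held 3 GC boxes and 1 CCAAT box, that of Col4a1 1 GC box and 1 CCAAT box, and that of Col4a2 3 GC boxes and 1 CCAAT box, with no TATA box in any of them. No match of one motif overlapped another motif. The Col4a1 and Col4a2 windows share 78 bases, and the GC box of Col4a1 lies there and is the same site as 1 of those counted for Col4a2. Of all 32851 promoter windows in the table, 35.7% held a GC box, 37.4% a CCAAT box and 13.6% a TATA box, so each of these motifs was common among promoters. CpG dinucleotides numbered 37 for Col4a1, 33 for Col4a2 and 16 for Col18a1, against a median of 7 over all windows. The other Col18a1 window, at its downstream start (chr10:77113656-77113955, minus strand), held 6 CpG and none of the 3 motifs, and the counts do not tell which start was used. Of the other chains with this order of libraries, Col4a5 had 1 GC box, 1 CCAAT box and 11 CpG. The window of Col19a1 held 16 CpG and none of the 3 motifs, and Col14a1 had no window.

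Col14a1 encodes a FACIT collagen found on the surface of type I fibrils. It had 20, 100 and 226 counts in BMI1-KO MM-MΦs, 18, 151 and 206 counts in BMI1-KO MΦs, 12, 27 and 51 counts in wt MM-MΦs, and 5, 49 and 56 counts in wt MΦs. Libraries with number 1 were lowest in all 4 groups. The log2 fold change of BMI1-KO against wt was 1.93 (SE 0.97, edgeR adjusted p = 0.999) in MM-MΦs and 1.76 (SE 0.96, edgeR adjusted p = 0.951) in MΦs. Without library 3 of the BMI1-KO group these were 1.10 and 1.23. With the library number as a block across all 4 groups edgeR called Col14a1 in MM-MΦs (1.76, adjusted p = 0.0204) and in MΦs (1.72, adjusted p = 0.0184), although the numbers were not read as pairing libraries of different genotype. Col4a5, an X-linked chain of type IV collagen mutated in Alport syndrome, had 9, 47 and 152 counts in BMI1-KO MM-MΦs, 25, 43 and 178 counts in BMI1-KO MΦs, 20, 23 and 46 counts in wt MM-MΦs, and 41, 13 and 59 counts in wt MΦs. Its genotype groups overlapped in both cultures, with log2 fold changes of 1.19 (SE 0.88, edgeR adjusted p = 0.999) in MM-MΦs and 1.11 (SE 0.87, edgeR adjusted p = 0.976) in MΦs. Without library 3 of the BMI1-KO group these were 0.017 and −0.072. Col4a6, which lies head to head with Col4a5 at a distance of 1308 bases, had 8 counts in all libraries together.

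Col19a1, a FACIT collagen first described in a human rhabdomyosarcoma line, differed from the genes above in that its BMI1-KO libraries lay close together. It had 25, 39 and 48 counts in BMI1-KO MM-MΦs, 27, 31 and 34 counts in BMI1-KO MΦs, 23, 7 and 15 counts in wt MM-MΦs, and 18, 9 and 10 counts in wt MΦs. The genotype groups did not overlap in either culture, though the lowest BMI1-KO MM-MΦ library and the highest wt MM-MΦ library were 2 counts apart. The log2 fold change was 1.32 (SE 0.44, edgeR adjusted p = 0.716) in MM-MΦs and 1.30 (SE 0.45, edgeR adjusted p = 0.668) in MΦs, and it was 1.18 and 1.26 without library 3 of the BMI1-KO group. At a mean of 0.333 RPKM, Col19a1 was a low-level transcript throughout.

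**Figure D2:**
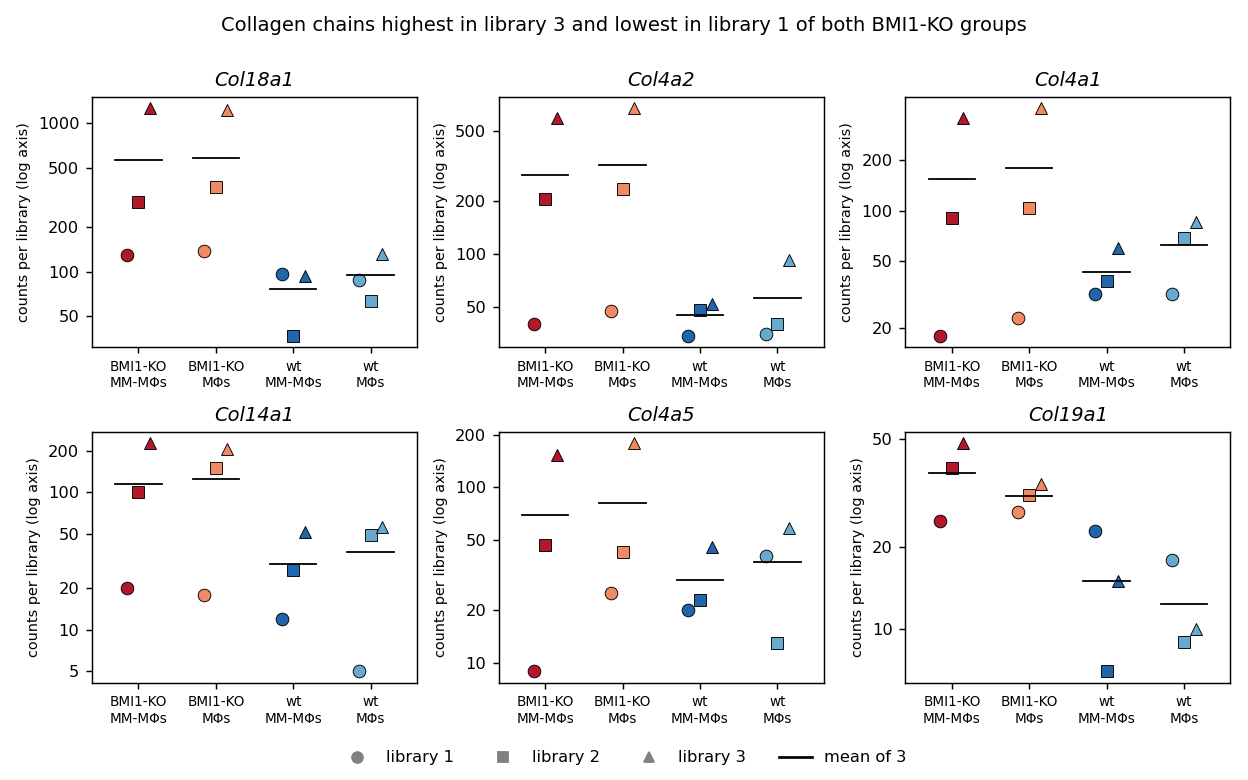
Counts per library (log axis) of 6 collagen chain genes in the 4 groups. Symbols give the library number and lines the mean of 3 libraries. In both BMI1-KO groups library 3 is highest and library 1 lowest for each gene, and only for Col18a1 and Col19a1 do all BMI1-KO libraries lie above the wt libraries of the same culture.

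Over the 20 genes tested, edgeR called 0 between BMI1-KO and wt MM-MΦs, where it called 0.0634% of all genes, and 0 in BMI1-KO MΦs against wt MΦs, where it called 0.0493%. An unadjusted edgeR p under 0.05 was reached by 3 genes in either comparison, Col18a1, Col4a2 and Col19a1, beside 5.02% and 5.77% of all genes. In MM-MΦs limma-voom called 0 (0.0634% of all genes) and DESeq2 called 1 (0.627%), and in MΦs limma-voom called 0 (0.0563%) and DESeq2 called 0 (0.550%). Genes called higher made up 0.0493% of all genes in MM-MΦs and 0.0352% in MΦs. With the replicate number as a block edgeR called 2 in MM-MΦs, Col14a1 and Col18a1, beside 1.27% of all genes, and 1 in MΦs, Col14a1, beside 1.45%. The median log2 fold change of the 20 genes was 0.48 in MM-MΦs, against −0.01 over all genes, with 16 genes above 0, beside 47.5% of all genes. In MΦs the median was −0.09, against −0.01 over all genes, with 9 genes above 0, beside 48.3%. These medians and counts were not computed without library 3 of the BMI1-KO groups. BMI1-KO libraries lay wholly above wt libraries for 2 genes in MM-MΦs, beside 4.40% of all genes, and for 3 genes in MΦs, beside 5.17%, and wholly below for 0 genes in either, beside 4.46% in MM-MΦs and 4.83% in MΦs. The gene that joined Col18a1 and Col19a1 in MΦs was Col15a1, the other multiplexin, with 58, 76 and 60 counts in BMI1-KO MΦs, against 52, 51 and 41 counts in wt MΦs.

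Of the 20 genes, 8 were highest in library 3 of both BMI1-KO groups and 6 of these were also lowest in library 1 of both, namely Col18a1, Col4a1, Col4a2, Col4a5, Col14a1 and Col19a1. The share of all genes tested with this order was not computed. Deviations from group means correlated across genes between the 2 BMI1-KO groups, at 0.642, 0.18 and 0.598 for numbers 1 to 3. The order can therefore not be read as particular to collagen genes. The ratio of the highest to the lowest BMI1-KO library in CPM by library total was 17.2 in MM-MΦs and 16.1 in MΦs for Col4a1, 13.0 and 13.1 for Col4a2, and 8.52 and 8.06 for Col18a1. Over the wt libraries of a culture these ratios were 1.9 and 2.58 for Col4a1, 1.55 and 2.53 for Col4a2, and 2.41 and 1.89 for Col18a1. Of 26 markers of other cell types that passed the filter, 5 had the same order of libraries in both BMI1-KO groups, Cspg4, Runx2, Cdh5, Igkc and Cd79b, from 4 different lists. Cspg4 (NG2), a pericyte marker, differed most of these between libraries, with 20, 94 and 536 counts in BMI1-KO MM-MΦs, 11, 82 and 432 counts in BMI1-KO MΦs, 26, 11 and 46 counts in wt MM-MΦs, and 17, 33 and 47 counts in wt MΦs. Its log2 fold change of BMI1-KO against wt was 2.92 (SE 1.20, edgeR adjusted p = 0.926) in MM-MΦs and 2.40 (SE 1.18, edgeR adjusted p = 0.909) in MΦs, and 1.15 and 0.55 without library 3 of the BMI1-KO group. The summed level of the 10 smooth muscle and pericyte markers was 17.3 to 63.9 CPM in BMI1-KO MM-MΦs, 13.2 to 53.5 CPM in BMI1-KO MΦs, 17.6 to 28.8 CPM in wt MM-MΦs and 14.4 to 29.6 CPM in wt MΦs, with counts for all 10 markers and 4 passing the filter. Cspg4 made up 75.1% and 73.2% of this sum in library 3 of BMI1-KO MM-MΦs and BMI1-KO MΦs, and without it the sum was 15.2 to 25.7 CPM in BMI1-KO MM-MΦs, 12.1 to 17.4 CPM in BMI1-KO MΦs, 13.6 to 27.6 CPM in wt MM-MΦs and 12.7 to 26.2 CPM in wt MΦs, highest in library 2 of each group. Acta2 and Tagln of that list, which passed the filter, had 81 to 192 and 15 to 81 counts per library. Defining markers of that list, Myh11, Des and Rgs5, had at most 3 counts in any library. The part of such cells in the collagen values was not tested.

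Slc19a1, the reduced folate carrier gene, overlaps Col18a1 by 8825 bases on the other strand, and the sources used here do not say whether reads were counted by strand. It had 71, 71 and 107 counts in BMI1-KO MM-MΦs, 53, 105 and 111 counts in BMI1-KO MΦs, 99, 74 and 89 counts in wt MM-MΦs, and 99, 70 and 130 counts in wt MΦs. Its groups overlapped in both genotype comparisons. Col20a1 overlaps 9230112E08Rik on the same strand by 741 bases, so reads there could have been assigned to either gene.

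Type I collagen, the fibre of bone and the most abundant collagen of the body, is built from the chains of Col1a1 and Col1a2, and both had counts in every library. Col1a1 had 148, 291 and 153 counts in BMI1-KO MM-MΦs, 127, 60 and 174 counts in BMI1-KO MΦs, 222, 212 and 87 counts in wt MM-MΦs, and 99, 238 and 171 counts in wt MΦs. Col1a2 had 114, 208 and 133 counts in BMI1-KO MM-MΦs, 119, 42 and 86 counts in BMI1-KO MΦs, 180, 216 and 67 counts in wt MM-MΦs, and 105, 178 and 104 counts in wt MΦs. All groups overlapped for both chains. The log2 fold change of MM-MΦs against MΦs was 0.75 for Col1a1 (SE 0.50, edgeR adjusted p = 0.9999) and 0.89 for Col1a2 (SE 0.52, edgeR adjusted p = 0.9999) in BMI1-KO cells. In wt cells it was 0.08 for Col1a1 (SE 0.50) and 0.29 for Col1a2 (SE 0.51), with edgeR adjusted p = 1 for both. The interaction of genotype and co-culture, which is the difference between these changes, was 0.67 for Col1a1 (SE 0.71) and 0.60 for Col1a2 (SE 0.72), again with edgeR adjusted p = 1. Library 2 carried these differences: without the 4 libraries of that number the interaction was −0.25 for Col1a1 and −0.036 for Col1a2, and the change in BMI1-KO cells was 0.019 for Col1a1 and 0.25 for Col1a2. All these values are from the fit without pairing. With the number as a block within each genotype, the change in BMI1-KO cells was 0.74 for Col1a1 (SE 0.36, edgeR adjusted p = 0.473). For Col1a2 it was 0.93 (SE 0.32, edgeR adjusted p = 0.201). The interaction with this block was 0.71 for Col1a1 (SE 0.50) and 0.73 for Col1a2 (SE 0.44), with neither called.

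The other fibrillar chains had few counts. Col5a1 and Col5a2, chains of the type V collagen that controls fibril width, had 13 to 60 and 15 to 70 counts per library, and Col11a2, a chain of cartilage type XI collagen, had 24 to 71 counts. Col2a1, the collagen of cartilage, had 0 to 22 counts. Of the 6 fibrillar genes tested 5 had a log2 fold change above 0 with co-culture in BMI1-KO cells (median 0.68) and 3 in wt cells (median 0.03), and 5 had a positive interaction (median 0.64), with 0 called in each. Of all genes 48.7%, 50.7% and 49.2% were above 0 in the same order. These medians and counts were not computed without library 2, on which the values of Col1a1 and Col1a2 rested.

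Fibrillar chains and stromal markers were high in the same libraries. The summed level of the 11 fibrillar genes was 43.6, 67.2 and 36.0 CPM for libraries 1 to 3 of BMI1-KO MM-MΦs, then 39.9, 20.1 and 33.3 CPM for BMI1-KO MΦs, 56.1, 63.5 and 23.0 CPM in wt MM-MΦs, and 35.6, 63.5 and 34.6 CPM in wt MΦs. That of the 20 fibroblast and stromal cell markers was 8.72, 13.2 and 7.25 CPM for BMI1-KO MM-MΦs, then 8.75, 7.15 and 7.35 CPM for BMI1-KO MΦs, 9.38, 16.3 and 6.58 CPM in wt MM-MΦs, and 7.11, 17.8 and 8.19 CPM in wt MΦs. The 3 libraries with the most fibrillar RNA, all with number 2, also had the most stromal marker RNA. Of the stromal markers 18 had a count in some library, 9 reached 10 counts in a library and 6 passed the filter, with 0 called in any comparison. Cdh11 (a mesenchymal cadherin), Fbn1 (fibrillin) and Fap (fibroblast activation protein), the 3 with the highest mean CPM, had 7 to 38, 3 to 33 and 6 to 24 counts per library. The other stromal markers that passed, Cxcl12, Prrx1 and Pdgfrb, had 2 to 41, 3 to 24 and 1 to 12 counts per library. Among those that did not pass, Dcn and Lum, small proteoglycans of connective tissue, had at most 6 and 4 counts and Dpt at most 1 count. Twist2 and Meg3 were at 0 in all libraries. The part of stromal RNA in the fibrillar values was not tested.

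**Figure D3:**
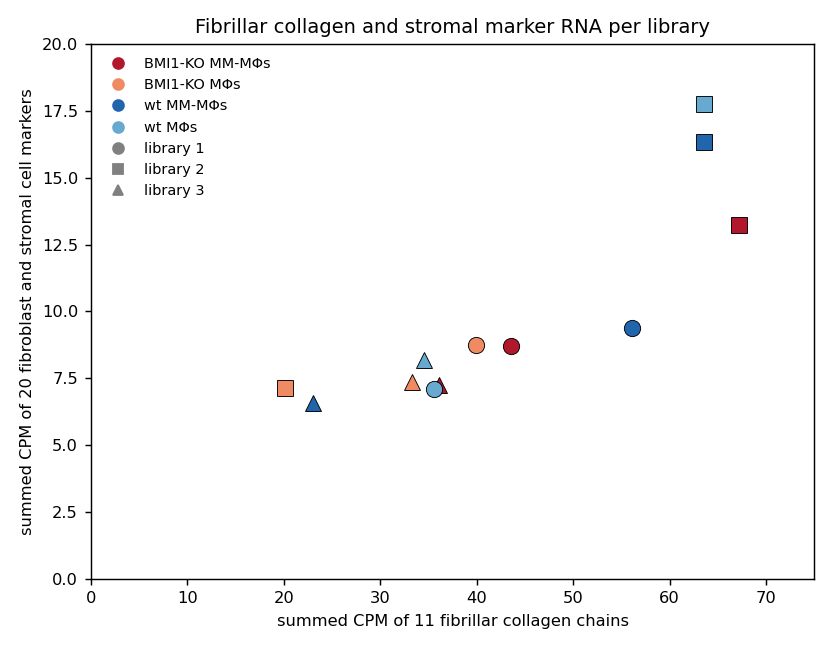
Summed CPM (TMM-scaled) of 20 fibroblast and stromal cell markers against that of 11 fibrillar collagen chains, 1 point per library, with colour for the group and shape for the library number. Library 2 of BMI1-KO MM-MΦs, wt MM-MΦs and wt MΦs lies at the top right, at 63.5 to 67.2 CPM of fibrillar chains, and library 2 of BMI1-KO MΦs lies at the far left at 20.1 CPM.

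Co-culture with myeloma cells called none of the collagen genes. Of the 20 genes tested edgeR called 0 in BMI1-KO MM-MΦs against BMI1-KO MΦs, where it called 0.190% of all genes, and 0 in wt MM-MΦs against wt MΦs, where it called 0.0916%. In BMI1-KO cells DESeq2 called 0 (0.641% of all genes), limma-voom 0 (0.176%) and edgeR with the replicate number as a block 0 (2.17%). In wt cells DESeq2 called 0 (0.409%), limma-voom 0 (0.0141%) and the block 0 (1.10%). In the fit without pairing, an unadjusted edgeR p under 0.05 was reached by 1 gene in each, beside 2.94% of all genes in BMI1-KO cells and 1.99% in wt cells. In BMI1-KO cells it was Col6a3, a chain of the beaded filaments of type VI collagen, with 10, 14 and 27 counts in MM-MΦs against 5, 2 and 6 counts in MΦs (1.94 on the log2 scale, SE 0.77, edgeR unadjusted p = 0.0278, adjusted p = 0.9999). In wt cells Col6a3 had 5, 22 and 8 counts in MM-MΦs against 5, 18 and 6 counts in MΦs, and its interaction was 1.66 (SE 1.05, edgeR adjusted p = 1). In wt cells the gene was Col7a1, the chain of the anchoring fibrils of skin, with 14, 17 and 22 counts in MM-MΦs against 7, 8 and 7 counts in MΦs (1.25 on the log2 scale, SE 0.51, edgeR unadjusted p = 0.0328, adjusted p = 1). In BMI1-KO cells Col7a1 had 21, 18 and 26 counts in MM-MΦs against 11, 23 and 5 counts in MΦs, and these overlapped. With the replicate number as a block, edgeR gave an unadjusted p of 0.00844 for Col1a2 and 0.00848 for Col6a3 in BMI1-KO cells (adjusted p = 0.201 for both). Col15a1 changed by −0.69 there (edgeR unadjusted p = 0.0358, adjusted p = 0.413). In wt cells the block gave an edgeR unadjusted p of 0.0471 for Col4a1 and 0.04999 for Col7a1. The other chains lay above 0.05 with the block, and the share of all genes below it was not computed.

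MM-MΦ libraries lay wholly above MΦ libraries for 2 of the 20 genes in BMI1-KO cells, Col6a3 and the FACIT gene Col12a1, beside 3.71% of all genes, and for Col7a1 alone in wt cells, beside 3.04%. They lay wholly below for 0 genes in either, beside 3.37% in BMI1-KO cells and 2.62% in wt cells. The median log2 fold change with co-culture was 0.43 in BMI1-KO cells, with 12 genes above 0, and −0.05 in wt cells, with 8 genes above 0. Of all genes 48.7% and 50.7% were above 0 in these comparisons. The interaction of genotype and co-culture called 0 of the 20 genes, with 0.00% of all genes called, and 0 of the 20 and 0.909% of all genes had an unadjusted edgeR p under 0.05. DESeq2 and limma-voom called 0 there as well, of all genes too, and the block called 0 of the 20 and 0.00704% of all genes. The median interaction of the 20 genes was 0.28, with 17 above 0, against a median near 0 over all genes, of which 49.2% were above 0. Without the libraries with number 2 the interactions of Col1a1 and Col1a2 were −0.25 and −0.036. The median and count of the 20 genes without them were not computed. For Col18a1, Col4a2, Col4a1, Col14a1 and Col4a5 the co-culture change was −0.04 to −0.24 in BMI1-KO cells and −0.27 to −0.51 in wt cells on the log2 scale, with standard errors of 0.77 to 0.98 in the fit without pairing. With the number as a block within each genotype the standard errors were 0.14 to 0.36 and 0 of these were called, with the lowest edgeR adjusted p at 0.758 for Col4a1 in wt cells (−0.48, SE 0.23). Among all 20 genes the lowest edgeR adjusted p with this block was 0.201, for Col1a2 in BMI1-KO cells. Col4a1 CPM was lower in the MM-MΦ library in 3 of 3 pairs of BMI1-KO cells and 3 of 3 pairs of wt cells, and Col4a2 CPM in 3 of 3 and 2 of 3. Col18a1 and Col4a5 CPM were lower in 2 of 3 and 2 of 3, and Col14a1 CPM in 1 of 3 and 2 of 3. The share of all genes lower in 3 of 3 pairs was not computed. Col20a1, a FACIT chain described in chick embryos, was among the 8 most abundant genes and had 135, 60 and 64 counts in BMI1-KO MM-MΦs, 156, 70 and 44 counts in BMI1-KO MΦs, 108, 113 and 55 counts in wt MM-MΦs, and 124, 113 and 51 counts in wt MΦs. Its log2 fold changes were −0.04 and −0.06 with co-culture and −0.07 and −0.08 with BMI1 loss, each with a standard error of 0.59.

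**Figure D4:**
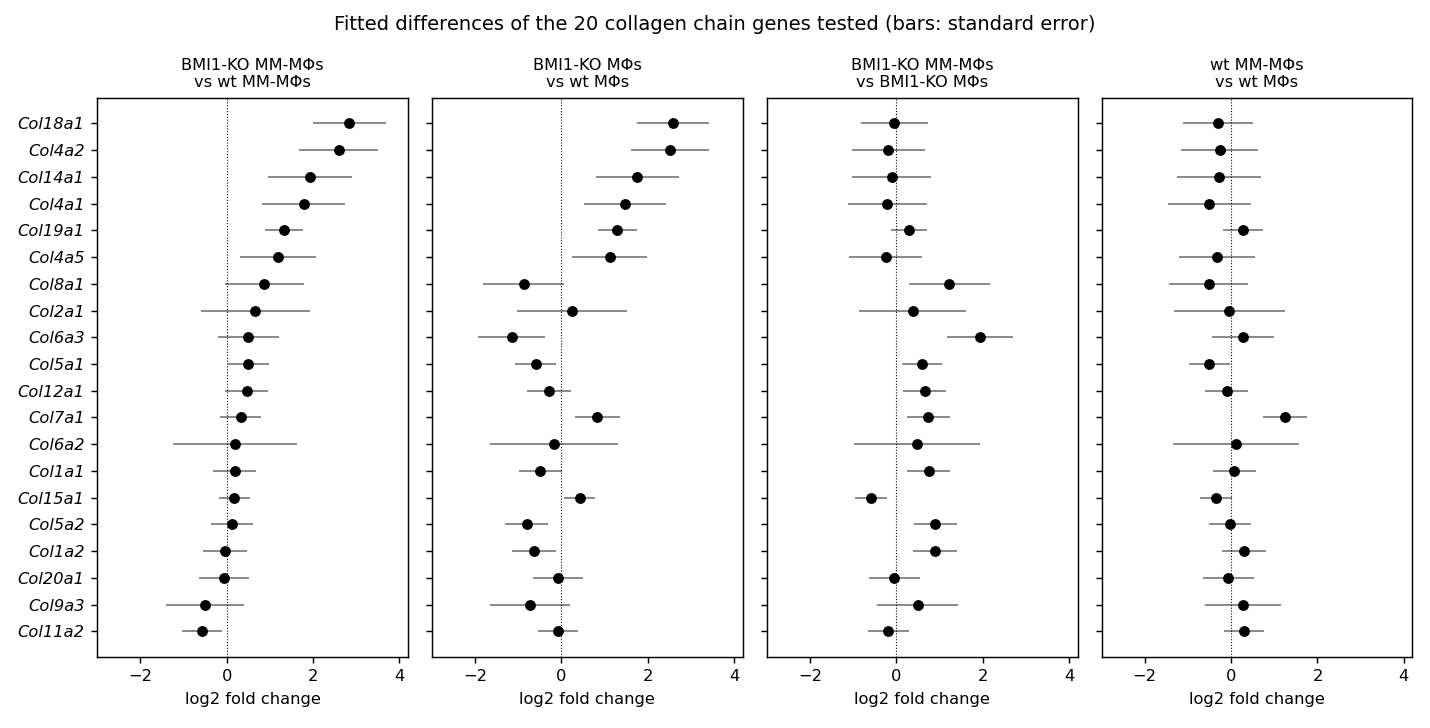
Log2 fold changes (horizontal axis) of the 20 collagen chain genes tested, in 4 comparisons, from edgeR with 1 mean per group. Points are fitted values and bars 1 standard error. The largest values, 2.84 and 2.59 for Col18a1, are in the genotype comparisons, and no gene passed an adjusted p of 0.05 in any panel.

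The enzymes that modify and fold collagen were called in no comparison. Of 23 genes for hydroxylation, glycosylation and folding, 19 passed the filter and 0 were called in any comparison, and their summed level was 1251 to 1769 CPM in BMI1-KO MM-MΦs, 1200 to 1576 CPM in BMI1-KO MΦs, 1435 to 1583 CPM in wt MM-MΦs and 1358 to 1587 CPM in wt MΦs. Many of these, such as the protein disulfide isomerase P4hb, also fold other proteins. Serpinh1 (HSP47), a chaperone dedicated to collagen, had 14 to 61 counts per library. Plod2, a lysyl hydroxylase, had 13, 35 and 52 counts in BMI1-KO MM-MΦs, against 12, 12 and 17 counts in wt MM-MΦs (1.27 on the log2 scale, SE 0.59, edgeR adjusted p = 0.999). Its genotype groups overlapped in both cultures. Of 14 genes for processing and crosslinking 8 passed and 0 were called. Nearly all of their counts were those of Tgm2, a transglutaminase of macrophages with 7215 to 12996 counts, while Lox, the lysyl oxidase that crosslinks fibres, had 17 to 108 counts.

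No receptor or breakdown enzyme was called in any comparison either. Of 15 genes for collagen receptors and uptake 11 passed, and of 18 genes for breakdown 14 passed. Mmp9 (gelatinase B), which cuts denatured collagen and type IV collagen, had 136, 260 and 369 counts in BMI1-KO MM-MΦs, 134, 232 and 387 counts in BMI1-KO MΦs, 16, 40 and 32 counts in wt MM-MΦs, and 12, 66 and 24 counts in wt MΦs. Its genotype groups did not overlap in either culture, with log2 fold changes of 3.10 (SE 0.62, edgeR adjusted p = 0.183) in MM-MΦs and 2.83 (SE 0.61, edgeR adjusted p = 0.248) in MΦs. Mfge8, a bridging protein that takes part in collagen uptake by macrophages, had 1214, 887 and 390 counts in BMI1-KO MM-MΦs, against 4445, 10229 and 1479 counts in wt MM-MΦs (−2.69 on the log2 scale, SE 0.86, edgeR adjusted p = 0.664), with −2.40 in MΦs. Ctsk (cathepsin K), the collagenase of osteoclasts, had 73, 45 and 29 counts in BMI1-KO MM-MΦs, against 125, 177 and 83 counts in wt MM-MΦs (−1.36 on the log2 scale, SE 0.55, edgeR adjusted p = 0.902). On the TMM-scaled level the Ctsk groups overlapped in MM-MΦs. In MΦs they also overlapped in counts, with 74, 73 and 60 counts in BMI1-KO MΦs, against 116, 151 and 39 counts in wt MΦs (−0.60 on the log2 scale). Mrc1 (CD206), an endocytic receptor that binds collagen, had 7551, 5023 and 3955 counts in BMI1-KO MΦs, against 8236, 9735 and 9639 counts in wt MΦs (−0.71 on the log2 scale, SE 0.28, edgeR adjusted p = 0.795), with −0.55 in MM-MΦs. In unscaled counts, every BMI1-KO library of Mfge8 and Mrc1 lay below every wt library in both cultures. On the TMM-scaled level this held for Mrc1, and for Mfge8 only in MM-MΦs, since its groups overlapped in MΦs. On that level 2 of the 11 receptor and uptake genes tested lay wholly below in MM-MΦs, beside 4.46% of all genes. In MΦs 2 did, beside 4.83%.

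Among 32 other matrix genes 17 passed and 0 were called. Their median log2 fold change with co-culture was 0.45 in BMI1-KO cells, with 16 of 17 above 0, and 0.18 in wt cells, with 12 of 17 above 0. Of all genes 48.7% and 50.7% were above 0 in these comparisons, with medians near 0. The values for the matrix genes were not computed with a library left out. Lamb2, a laminin chain of basement membranes, had 42, 26 and 21 counts in BMI1-KO MΦs, against 62, 76 and 94 counts in wt MΦs (−1.34 on the log2 scale, SE 0.32, edgeR adjusted p = 0.371), with −0.62 in MM-MΦs. Of 18 genes of the TGF-beta pathway, the main inducer of collagen genes in stromal cells, 17 passed and 0 were called. Ltbp2, a latent TGF-beta binding protein family member of elastic fibres, had 245, 201 and 170 counts in BMI1-KO MM-MΦs, against 79, 98 and 53 counts in wt MM-MΦs (1.44 on the log2 scale, SE 0.37, edgeR adjusted p = 0.429), with 1.81 in MΦs.

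Only part of the markers of the other collagen-making cells passed the filter. Of 10 osteoblast markers 3 passed, and the late markers Bglap, Bglap2 and Dmp1 had at most 2 counts in any library. Runx2, which passed, had 82 to 269 counts per library. Alpl (alkaline phosphatase) had 2, 20 and 32 counts in BMI1-KO MM-MΦs, 0 counts in all BMI1-KO MΦs, 8, 24 and 28 counts in wt MM-MΦs, and 1, 2 and 0 counts in wt MΦs. Of 8 chondrocyte markers 1 passed and of 12 endothelial markers 4 passed, and Cldn5, Robo4 and Sox17 of the endothelial list were at 0 in all libraries. Cdh5 of that list, which passed, had 4 to 30 counts per library. Kdr, Pecam1 and Stab2 made up most of the endothelial sum, which was 27.9 to 85.9 CPM in BMI1-KO MM-MΦs, 23.3 to 53.9 CPM in BMI1-KO MΦs, 23.2 to 72.6 CPM in wt MM-MΦs and 20.7 to 50.2 CPM in wt MΦs. Of 12 plasma cell and myeloma markers 8 passed. Igkc, an immunoglobulin light chain gene, had 357, 586 and 1218 counts in BMI1-KO MM-MΦs, against 8, 11 and 25 counts in BMI1-KO MΦs (5.6 on the log2 scale, SE 0.95, edgeR adjusted p = 0.0466), and 423, 1327 and 831 counts in wt MM-MΦs, against 12, 157 and 31 counts in wt MΦs (3.67 on the log2 scale, SE 0.83, edgeR adjusted p = 0.295). Every MM-MΦ library was above every MΦ library of its genotype for Igkc, and the part of plasma or myeloma cell RNA in the collagen values was not tested.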

How the data were processed

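RNA of sorted CD11b+ F4/80+ cells was sequenced in 12 libraries. The authors deposited raw counts per gene and, for each library, FPKM values. The submitters' processing notes name bcl2fastq 2.17.1.14, cutadapt 1.9.1, HISAT2 2.0.1, HTSeq 0.6.1, DESeq2 and the build GRCm38 (mm10). The sources used here give neither the annotation release nor the strand setting. The deposited FPKM values served only to check levels and library totals. RPKM was recomputed from the counts and the summed exon size and differed from the deposited FPKM by at most 0.005.

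Counts were tested with edgeR 4.0.16 (TMM, quasi-likelihood, 1 mean per group, R 4.3.3) after filterByExpr with a minimum count of 10, which left 14197 genes, with Benjamini-Hochberg adjustment over all of them and a threshold of 0.05. Library totals were 9662279 to 11142768 counts. Alternatives were DESeq2 1.42.0, limma-voom (limma 3.58.1), other scalings and filters, the replicate number as a block, the compared libraries alone, and leaving out each library or each replicate number. The functions were tested on simulated data.

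Collagen genes given in every library are those past an adjusted p of 0.05 (0 genes), the 8 with the highest mean RPKM and those with an unadjusted p under 0.05 in a comparison, and the others are given by class. From each other list up to 4 members with the smallest unadjusted p could be named, and from each marker list the 3 with the highest mean CPM and defining markers at 0. Col15a1, Col12a1, Col3a1, Lox, Igkc, Cdh5, Cd79b, Slc19a1, Cxcl12, Prrx1, Pdgfrb and markers with few counts were named outside this rule, after their values were seen. The genes and lists were chosen with earlier results of these data known. The result of 1 listed gene is not reported here.

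Deviations from group means correlated at 0.642, 0.18 and 0.598 between BMI1-KO MM-MΦs and MΦs of the same number and at 0.548, 0.361 and 0.725 in wt, across genes, so numbers were read as pairing these libraries. The correlation was weakest for number 2 in both genotypes. The main fit did not use this pairing, and the block was an alternative.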

Additional observations from a re-analysis of the deposited data

How the results depend on the processing

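Across the alternatives edgeR, DESeq2 and limma-voom called 0 collagen genes in both co-culture comparisons and in the interaction. Between BMI1-KO and wt MM-MΦs DESeq2 called 1, Col18a1. With the replicate number as a block edgeR called 2 in MM-MΦs, Col14a1 and Col18a1 (1.27% of all genes), and 1 in MΦs, Col14a1 (1.45%). Between genotypes the same number gave correlations of 0.497, 0.0331 and 0.508 in MM-MΦs and 0.481, −0.0313 and 0.503 in MΦs. No pairing was assumed there, although numbers 1 and 3 correlated between genotypes too. The block changed no other call. With any library or number left out edgeR called 0 in every comparison. The summed level, as log2 ratio of group means, was 0.34 to 1.37 between BMI1-KO and wt MM-MΦs and 0.20 to 1.23 between BMI1-KO and wt MΦs with a library or number left out, lowest without number 3. The log2 fold change of Col1a1 in wt MM-MΦs against wt MΦs was −0.011 with limma-voom and −0.40 to 0.48 with a library or number left out, and that of Col1a2 was −0.079 to 0.67. The interaction was −0.25 to 1.40 for Col1a1 and −0.036 to 1.42 for Col1a2, and Col4a5 in BMI1-KO MΦs against wt MΦs was −0.072 to 1.65. The cause was not tested. Low counts limit the precision, and the smallest difference that could be called was not computed. Leaving out library 3 for Cspg4 and the RPKM order, and Cspg4 from its list, was chosen after seeing the data.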
